A study of Mus musculus with 8 samples.

Results

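The genes described here are the cardiac myosin heavy chains *Myh6*, *Myh7* and *Myh7b* and the microRNA genes that lie in their introns, *Mir208a*, *Mir208b* and *Mir499*. The rows of the deposited table whose symbol equals one of these 6 names were taken, which gave 11 transcript rows of the 51414 in the table and 6 of its 26590 gene symbols. Each gene is given by its row with the highest average of both genotype means, and its other rows are given beside it. Rows were thus chosen by their level in the authors' means, and the genes were selected on earlier results of these data. The samples were whole hearts of male C57BL/6J mouse fetuses, 4 *Dio3*+/+ and 4 *Dio3*-/-, each heart from an individual fetus. *Dio3* encodes the type 3 deiodinase, an enzyme that inactivates thyroid hormones, and the *Dio3*-/- fetuses lacked it in every tissue. Sample titles give E13.5, an embryonic day, for all 8 hearts. In the age field, 6 hearts have E13.5 too, but hearts 3 and 4 of the *Dio3*-/- group have E18.5, and the study's methods name a day between these ages. Values are the authors' genotype means in RPKM (read density per transcript, corrected for its length and for library size), with the SD that their coefficient of variation (CV, SD divided by mean) gives over 4 hearts. The table used here holds no value of a single heart.

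A myosin heavy chain is the motor of the thick filament of the sarcomere. *Myh6* encodes the fast α chain and *Myh7* the slower β chain; in the mouse ventricle the β chain predominates before birth and the α chain after it, and thyroid hormone is a known inducer of *Myh6* and repressor of *Myh7*. *Myh7b* encodes a related slow chain that is made in small amounts. *Mir208a*, *Mir208b* and *Mir499* are known to be transcribed with their hosts and are studied for their effects on the choice of heavy chain.

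The 3 hairpins lie in introns of their host genes, on the host's strand. In GENCODE M21 (GRCm38), *Mir208a* lies in intron 29 of *Myh6* (39 exons, intron of 542 bases) and *Mir208b* in intron 31 of *Myh7* (41 exons, intron of 461 bases), both on the minus strand of chromosome 14. *Mir499* lies in intron 19 of *Myh7b* (42 exons, intron of 481 bases), on the plus strand of chromosome 2. All 3 microRNA genes matched the RefSeq table (GRCm38.p6), which places *Mir208a* at chr14:54949060-54949142, *Mir208b* at chr14:54975700-54975776 and *Mir499* at chr2:155622880-155622958. The hairpins are shown because they are what the microRNA rows count, with the mature arms in capitals:
*Mir208a*: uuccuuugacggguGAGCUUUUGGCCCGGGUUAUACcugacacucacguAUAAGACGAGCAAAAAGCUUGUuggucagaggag
*Mir208b*: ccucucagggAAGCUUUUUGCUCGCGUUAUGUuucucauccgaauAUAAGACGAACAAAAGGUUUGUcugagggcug
*Mir499*: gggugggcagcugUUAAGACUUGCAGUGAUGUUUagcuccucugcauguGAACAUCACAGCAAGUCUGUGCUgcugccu

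The main mature arms are shown with the seed, bases 2 to 8, in capitals, because the seed groups the family:
miR-208a-3p: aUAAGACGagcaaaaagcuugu
miR-208b-3p: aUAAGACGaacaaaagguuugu
miR-499-5p: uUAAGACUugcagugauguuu
The seed UAAGACG was shared by miR-208a-3p and miR-208b-3p and by no other of the 1738 mature entries in the RefSeq table. miR-208b-3p differs from miR-208a-3p at 3 positions, G10A, A16G and C18U, counted from 1 at the 5′ end with the base of miR-208a-3p first. miR-499-5p shares the first 6 bases of the seed and differs from miR-208a-3p in its last base, G8U.

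*Myh6* rose and *Myh7* did not pass the test. The highest *Myh6* row (uc007txr.2) averaged 459.52 RPKM (SD 59.7, n = 4) over the *Dio3*+/+ hearts and 959.07 RPKM (SD 76.7, n = 4) over the *Dio3*-/- hearts. The highest *Myh7* row (uc007txv.1) had means of 873.18 RPKM (SD 166, n = 4) and 825.40 RPKM (SD 82.5, n = 4). With 4 values, none can lie more than 1.5 SD from the mean, which bounds the single hearts although they are not listed. For *Myh6* these bounds were 366 to 553 RPKM in *Dio3*+/+ and 837 to 1081 RPKM in *Dio3*-/- hearts, so the genotypes cannot overlap. The bounds for *Myh7* were 618 to 1129 and 695 to 955 RPKM, so its genotypes may overlap. Such a separation upwards was found for 508 of the 14657 genes tested (3.47%), and one downwards for 0.484% of them.

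On the log2(RPKM + 0.5) scale, *Myh6* differed by 1.06 (SE 0.10, adjusted *P* = 0.0013 by limma with Benjamini-Hochberg adjustment over 32703 rows). *Myh7* differed by -0.08 (SE 0.13, 95% interval -0.38 to 0.21, adjusted *P* = 0.794 by limma). *Myh6* was 1 of 280 genes called higher, against a background of 1.91% of the 14657 genes tested, and 56 genes (0.382%) were called lower. The members were taken up with results of these data known, so the calls are descriptions of the members and not a separate line of evidence. The difference between both log2 fold changes was 1.14. Its SE cannot be had without single hearts, but the sum of both SEs, 0.23, is the largest it can be.

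**Figure D1:**
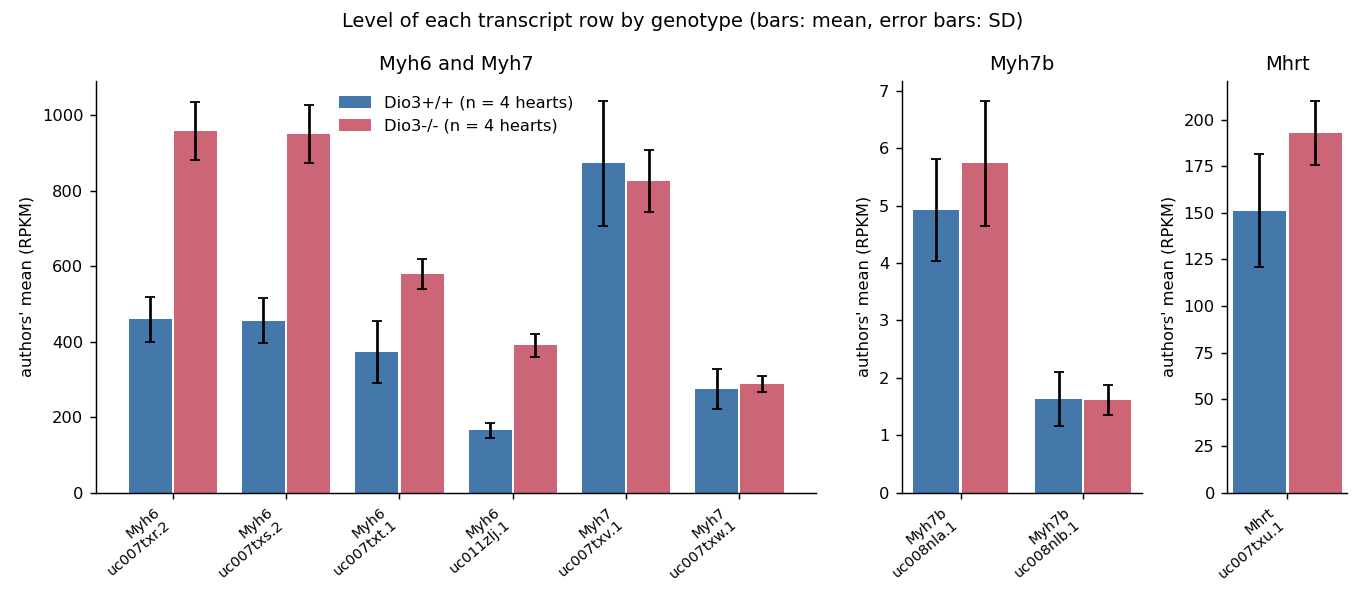
Authors' mean (RPKM) of each transcript row of *Myh6*, *Myh7*, *Myh7b* and the antisense RNA *Mhrt* in *Dio3*+/+ (blue) and *Dio3*-/- (red) hearts; bars are means of 4 hearts, error bars are SD, and each panel has its own axis from 0. All 4 *Myh6* rows are higher in *Dio3*-/- hearts, while the error bars of both *Myh7* rows overlap.

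The other *Myh6* rows were higher in *Dio3*-/- hearts too, by unequal amounts. Row uc007txs.2 was close to the highest row, with 455.58 and 950.62 RPKM. Row uc011zlj.1 was lower in level, with 164.62 RPKM (SD 19.8) in *Dio3*+/+ and 390.21 RPKM (SD 31.2) in *Dio3*-/- hearts, a log2 difference of 1.24 (SE 0.09, adjusted *P* = 0.00024 by limma). Row uc007txt.1 had 373.35 RPKM (SD 82.1) and 579.16 RPKM (SD 40.5), a log2 difference of 0.63 (SE 0.14) that missed the threshold (adjusted *P* = 0.052 by limma). Thus 3 of 4 *Myh6* rows passed, against 1.88% of all tested rows called higher, and the rows share reads. The bounds of single hearts were apart for all 4. The second *Myh7* row (uc007txw.1) had 274.46 RPKM (SD 52.1) and 287.92 RPKM (SD 20.2), a log2 difference of 0.07 (SE 0.12, adjusted *P* = 0.814 by limma).

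The coding sequences of both genes are alike, and the authors kept only reads that map to one place. Of the 6039 windows of 75 bases in the GENCODE transcript Myh6-201, 939 (15.5%) occur unchanged in Myh7-201, with a longest shared run of 245 bases. Reads inside those windows cannot be assigned to either gene. Transcript Myh7b-201 shares 0 such windows with Myh6-201 or Myh7-201, and its longest run in common with either is 33 bases.

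In the highest rows, *Myh6* had the lower mean of both chains in *Dio3*+/+ and the higher mean in *Dio3*-/- hearts. In *Dio3*+/+ hearts the level of *Myh6* was 0.526 times that of *Myh7*, and the bounds of single hearts did not meet (366 to 553 against 618 to 1129 RPKM). In *Dio3*-/- hearts it was 1.16 times that of *Myh7*, and the bounds did meet (837 to 1081 against 695 to 955 RPKM), so no order is established there. Both together came to 1333 RPKM in *Dio3*+/+ hearts, and to 1.34 times that, 1784 RPKM, without *Dio3*. *Myh6* gained 499.55 RPKM between the means, while the *Myh7* mean was lower by 47.78 RPKM, a difference that did not pass. In whole hearts, more cells that express a chain and more RNA of it per cell cannot be told apart.

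The share of *Myh6* in that sum depended on the rows taken. From the highest rows it was 34.5% and 53.7%. Over all 8 pairs of a *Myh6* row with a *Myh7* row, the share ran from 15.9% to 62.6% in *Dio3*+/+ and from 32.1% to 76.9% in *Dio3*-/- hearts. In each pair the *Dio3*-/- share was the higher one, by 9.16 to 20.05 percentage points. The 8 pairs use the same hearts, and no test was run on the share because it needs both chains in each heart. The share passed 50% between genotypes in 3 of the 8 pairs.

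**Figure D2:**
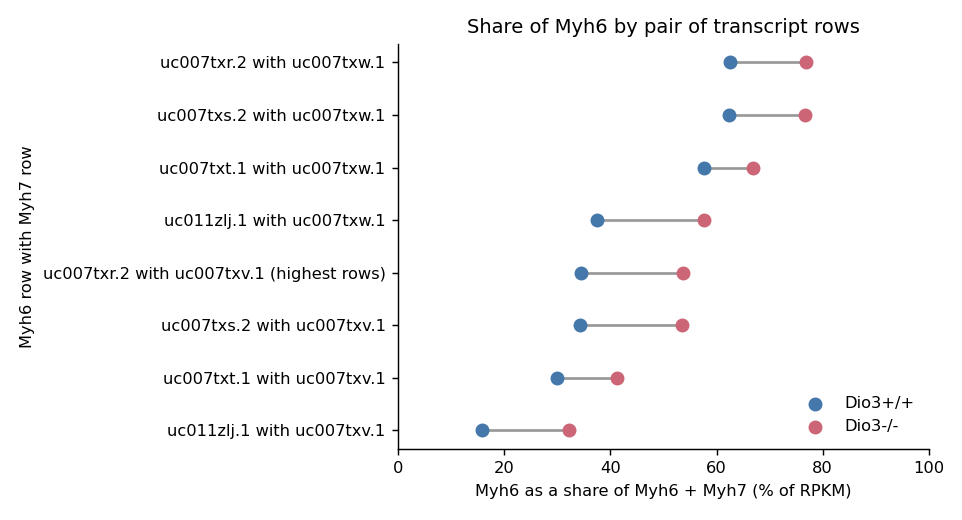
Share of *Myh6* in the sum of *Myh6* and *Myh7* (% of RPKM) for each of the 8 pairs of transcript rows, with *Dio3*+/+ in blue and *Dio3*-/- in red, both from the authors' means. The red point is to the right of the blue point in every pair, while the position of the pair on the axis depends on the rows.

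Because the age field gives a later day for *Dio3*-/- hearts 3 and 4, the table was asked how far these could lie from hearts 1 and 2. For a given mean and SD of 4 hearts, the mean of any 2 of them is bounded. For *Myh6*, the mean of any 2 *Dio3*-/- hearts was between 888 and 1030 RPKM, which is 1.93 to 2.24 times the *Dio3*+/+ mean. Both pairs of hearts were thus at most 141 RPKM apart, against the difference of 499.55 RPKM between genotypes. For *Myh7*, the mean of any 2 *Dio3*-/- hearts was between 750 and 900.5 RPKM, or 0.859 to 1.03 times the *Dio3*+/+ mean. The mean of *Dio3*-/- hearts 1 and 2 thus also lay above the highest *Myh6* value that a *Dio3*+/+ heart can have, 553 RPKM. The spread was smaller in *Dio3*-/- hearts for *Myh6* (CV 0.08 against 0.13) and *Myh7* (0.10 against 0.19), as it was in 67.5% of all tested rows.

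Among all 26590 symbols, *Myh7* ranked 76th and *Myh6* 154th by level in *Dio3*+/+ hearts, and in *Dio3*-/- hearts *Myh6* ranked 71st and *Myh7* 89th. Of the 654 tested genes with an average above 100 RPKM, 13 were called higher, and *Myh6* had the highest log2 fold change of those 13. Among all 654 it ranked 2nd, after a gene that was not called. The gene nearest to *Myh6* by the levels in both genotypes (Euclidean distance over log2(RPKM + 0.5), 2 values per gene) was *Atp2a2*, at a distance of 0.33. *Atp2a2* encodes the calcium pump of the sarcoplasmic reticulum, and it rose from 433.33 RPKM (CV 0.11) to 771.29 RPKM (CV 0.06), by 0.83 on the log2 scale (SE 0.08, adjusted *P* = 0.0021 by limma). The next 4 were *Myl9*, *Hist1h2bp*, *Hist1h2bc* and *Myl3*, at distances of 0.58 to 0.62, and none of these passed the test. The 5 genes nearest to *Myh7* were *Rpl41*, *Tuba1b*, *Hspa8*, *Hist1h2af* and *Gnas*, at distances of 0.09 to 0.14, and none of them passed either. The distance uses the same 2 means that give the fold change. A gene at a short distance therefore has a like fold change by construction, and these lists are descriptions only.

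**Figure D3:**
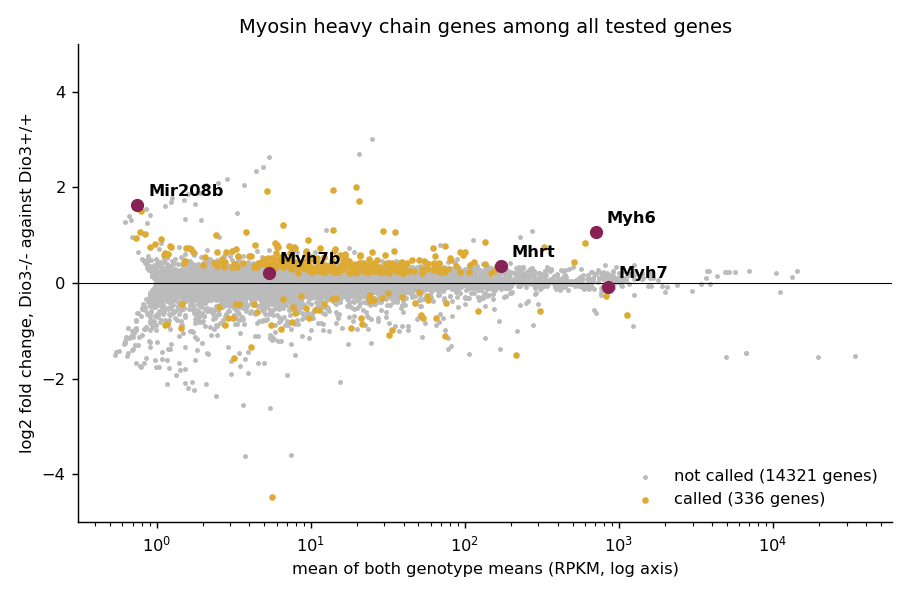
Log2 fold change (*Dio3*-/- against *Dio3*+/+) by the average of both genotype means (RPKM, log axis) for the 14657 tested genes, each by its highest row; called genes are in yellow and the labelled points are *Myh6*, *Myh7*, *Myh7b*, *Mir208b* and *Mhrt*. *Myh6* (1.06) stands above most genes of its level, and *Myh7* (-0.08) lies near 0.

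*Myh7b* was low in both genotypes. Its highest row (uc008nla.1) had 4.93 RPKM (SD 0.887, n = 4) in *Dio3*+/+ and 5.74 RPKM (SD 1.09, n = 4) in *Dio3*-/- hearts, and the bounds of single hearts overlapped. The log2 difference was 0.20 (SE 0.15, 95% interval -0.12 to 0.53, adjusted *P* = 0.507 by limma). Row uc008nlb.1 had 1.63 and 1.61 RPKM (adjusted *P* = 0.977 by limma). The level of *Myh7b* was thus far below those of *Myh6* and *Myh7*, and neither of its rows passed.

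The table also lists *Mhrt* (symbol D830015G02Rik, row uc007txu.1), an RNA read from the opposite strand between *Myh6* and *Myh7* and into *Myh7*. It had 151.19 RPKM (SD 30.2) in *Dio3*+/+ and 192.77 RPKM (SD 17.3) in *Dio3*-/- hearts. The log2 difference was 0.35 (SE 0.13), which did not pass (adjusted *P* = 0.188 by limma). Whether the libraries kept strand is not stated, and without it reads of *Mhrt* and of overlapping *Myh7* sequence cannot be told apart.

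Of the genes annotated beside the *Myh6*-*Myh7* locus, none passed the test. *Efs*, which encodes an adaptor protein of integrin signalling, had 6.33 RPKM (CV 0.32) and 3.47 RPKM (CV 0.09), a log2 difference of -0.78 (SE 0.18, adjusted *P* = 0.060 by limma). *Ngdn*, on the other side, had 11.34 and 12.69 RPKM, and Zfhx2os (listed as Zfhx2as) had 2.94 and 3.02 RPKM. *Il25* and *Cmtm5* were under 1 RPKM in both genotypes. Beside *Myh7b*, *Gss*, *Trpc4ap* and *Edem2* had log2 differences of 0.09, -0.03 and -0.10, and none passed.

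Reads in the microRNA rows were few, and those of *Mir208b* and *Mir208a* were found mainly in *Dio3*-/- hearts. *Mir208b* averaged 0.11 RPKM (CV 2.00) over the *Dio3*+/+ and 1.39 RPKM (CV 0.56) over the *Dio3*-/- hearts. *Mir208a* was listed at 0 in *Dio3*+/+ hearts and had 0.45 RPKM (CV 0.88) in *Dio3*-/- hearts. *Mir499* had 0.11 RPKM (CV 2.00) and 0.31 RPKM (CV 1.37). A CV of 2 is the limit for 4 hearts and means that only 1 heart had reads. A CV of 0.56 requires reads in all 4 hearts, 0.88 in at least 3 and 1.37 in at least 2. The mean of any 2 *Dio3*-/- hearts was bounded only to 0.71 to 2.07 RPKM for *Mir208b*. For *Mir208a* it was bounded to 0.105 to 0.795 RPKM and for *Mir499* to 0 to 0.679 RPKM. How far these reads came from *Dio3*-/- hearts 3 and 4, with the later day in the age field, therefore cannot be told.

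These means can be turned into approximate reads. In microRNA rows with a CV of 2, the sum over hearts in reads scaled to the library, from the RPKM and the RefSeq hairpin length, fell into a lowest cluster of 56 rows in *Dio3*+/+ (0.0281 to 0.0364) and 37 rows in *Dio3*-/- hearts (0.0253 to 0.0378). Each cluster was followed by a gap, to 0.0567 and 0.0528, and was taken as 1 read. *Mir206*, named after its values were seen, had a sum of only 0.00584 in *Dio3*-/- hearts (0.02 RPKM, CV 1.57). The values can thus be less than 1 read by this measure. The counts and intervals that follow hold only if whole reads were counted in the rows concerned. By its median, *Mir208b* had 1 read in *Dio3*+/+ and about 14 reads (11.3 to 16.9) in *Dio3*-/- hearts. *Mir208a* had 0 and about 5 reads (3.95 to 5.91), and *Mir499* had 1 and about 3 reads (2.59 to 3.88). The ratio of *Mir208b* reads, scaled for what 1 read was worth, was 12.5 (95% Clopper-Pearson interval 1.90 to 529, for counting error only). For *Mir499* the ratio was 2.68 (0.215 to 141), so a difference was not detectable at this depth. No fold is given for *Mir208a*, which was listed at 0 in *Dio3*+/+ hearts.

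Of the 3 microRNA genes, only *Mir208b* passed the filter of 1 RPKM, and it did so through the *Dio3*-/- hearts, where it was high. Its log2 difference was 1.63 (SE 0.33, adjusted *P* = 0.042 by limma), and 4 of the other ways of testing it ended the call, among them the test without the filter (adjusted *P* = 0.068 by limma). In the test without the filter, *Mir208a* differed by 0.93 (SE 0.25, adjusted *P* = 0.125) and *Mir499* by 0.41 (SE 0.38, adjusted *P* = 0.682), both by limma. Of the 162 microRNA rows with reads, 73 had the higher mean in *Dio3*-/- hearts (45.1%) and 82 the lower. By the numbers of hearts that the CVs imply, *Mir208b* was the only one of them with reads in all 4 *Dio3*-/- hearts and in at most 1 *Dio3*+/+ heart. Another row, *Mir3064*, named after its values were seen, had a larger difference in reads from a higher level (13.22 and 22.23 RPKM). *Mir208a* was the only row that was at 0 in *Dio3*+/+ hearts and reached 0.45 RPKM in *Dio3*-/- hearts. That cutoff is the value of *Mir208a* itself, and the criterion on numbers of hearts has the pattern of *Mir208b*. Both statements are therefore descriptions of the members and not a separate line of evidence. The libraries were made from fragmented RNA and read for 75 bases, which is longer than a mature microRNA. A hairpin row therefore counts longer RNA that contains the hairpin, and host intron and microRNA precursor cannot be told apart. The levels of the mature microRNAs were not measured.

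**Figure D4:**
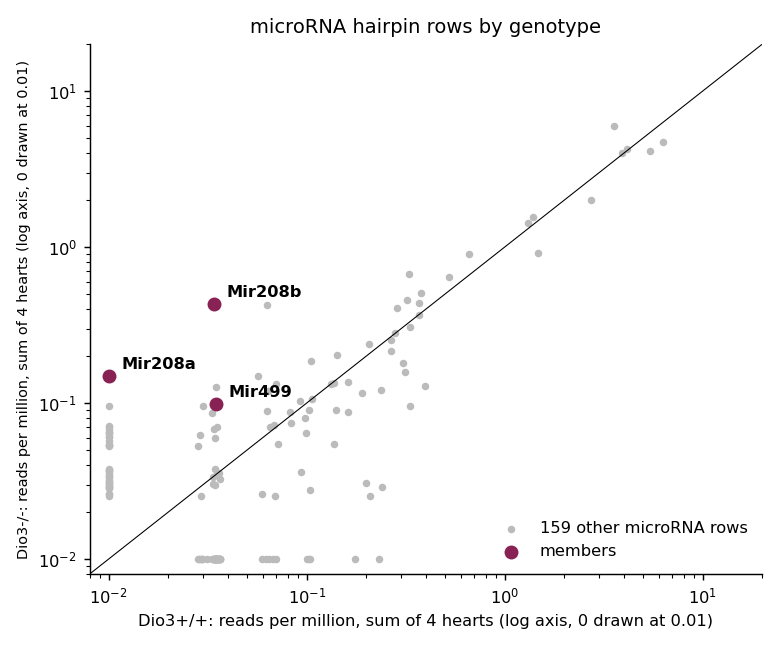
Reads scaled to the library, summed over 4 hearts, for each microRNA hairpin row with reads, *Dio3*+/+ on the horizontal and *Dio3*-/- on the vertical axis (both log axes, 0 drawn at 0.01); the line marks equal values, the 3 members are labelled and the 159 other rows are grey. *Mir208a* and *Mir208b* lie above the line and away from most other rows of the same *Dio3*+/+ value.

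The hairpins can be set beside their hosts. *Myh6* and *Mir208a* were both higher in *Dio3*-/- hearts by their means. *Myh6* passed the test, and *Mir208a*, tested only without the filter, did not (adjusted *P* = 0.125 by limma). *Myh7* had a slightly lower mean and did not pass, while *Mir208b* in its intron went from an estimated 1 read to about 14. Neither *Myh7b* nor *Mir499* was called. Whether a hairpin differs from its host in its change was not tested, since the table has no single hearts.

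The promoters of *Myh6* and *Myh7* are shown because these neighbouring genes differed in their change. Each window runs from 250 bases before to 50 bases after the start in RefSeq (GRCm38.p6), on the gene's strand, with the motif matches named in the next paragraph in capitals. The *Myh6* window is chr14:54966558-54966857 and the *Myh7* window chr14:54994577-54994876, both minus strand:
*Myh6*: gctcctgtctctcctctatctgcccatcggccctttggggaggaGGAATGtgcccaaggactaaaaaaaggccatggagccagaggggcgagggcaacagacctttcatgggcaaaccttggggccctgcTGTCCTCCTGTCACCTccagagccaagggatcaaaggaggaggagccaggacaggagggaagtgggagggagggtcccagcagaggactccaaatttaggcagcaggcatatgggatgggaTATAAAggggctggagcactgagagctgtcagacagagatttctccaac
*Myh7*: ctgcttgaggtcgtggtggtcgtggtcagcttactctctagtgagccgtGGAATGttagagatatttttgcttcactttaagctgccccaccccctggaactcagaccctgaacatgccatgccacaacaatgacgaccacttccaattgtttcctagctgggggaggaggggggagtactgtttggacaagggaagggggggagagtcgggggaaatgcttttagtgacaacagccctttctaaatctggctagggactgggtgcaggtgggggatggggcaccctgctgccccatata

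The motifs AGGTCA (a thyroid hormone receptor half-site), AGGNNANNNNAGGNNA (a loose form of a pair of half-sites spaced by 4 bases), CATTCC (the MCAT motif of TEAD factors), TATAAA and the CArG box of SRF were searched on both strands. The *Myh6* window held 1 match to AGGNNANNNNAGGNNA, read on the opposite strand as AGGTGACAGGAGGACA, at -120 to -105 from the start. Of 32851 windows of this length, 2.55% held this motif. The *Myh6* window also held CATTCC on the opposite strand at -206 to -201 and TATAAA at 2 to 7, and these occur in 14.7% and 13.6% of the windows. TATAAA thus lay just after the RefSeq start, and all positions given here depend on the start taken. The *Myh7* window printed above held CATTCC on the opposite strand at -201 to -196. A second *Myh7* window in RefSeq, chr14:54994500-54994799, held AGGNNANNNNAGGNNA on the opposite strand at 8 to 23. The *Myh7b* window (chr2:155610993-155611292) held 3 matches to the pair motif, of which the one at -56 to -41 overlaps its AGGTCA. The half-site AGGTCA (16.3% of windows) and the CArG box (1.63%) were not found in the *Myh6* and *Myh7* windows. The CArG box was searched only as CCWWWWWWGG, where W is A or T, and looser spellings were not searched. A match describes letters and not a bound site.

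The partners of myosin in the thick filament mostly had small positive differences. Of 15 tested genes in a list of 16, 1 was called higher and 0 lower, beside 1.91% and 0.382% of all tested genes. The log2 fold change was positive for 14 of the 15, and 9 had an unadjusted *P* under 0.05 by limma. By the unequal-variance alternative 0 were called. The median log2 fold change was 0.24 beside 0.04 for all tested genes. *Myl2*, the ventricular regulatory light chain, had 3431.57 and 4058.35 RPKM (adjusted *P* = 0.353 by limma). *Myl4*, the atrial essential light chain, had 1515.65 and 1677.72 RPKM (adjusted *P* = 0.488 by limma). The log2 fold change of *Myh6* (1.06) was above those of all 15.

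No other myosin heavy chain passed. Of the 11 listed, 5 were tested and 0 were called by limma or by the unequal-variance alternative, with 2 at an unadjusted *P* under 0.05 by limma. With 1.91% of all tested genes called higher and 0.382% lower, 0 of 5 is near the background. The nonmuscle chains *Myh10* (89.58 and 90.37 RPKM) and *Myh9* (37.11 and 38.91 RPKM) had the highest levels. *Myh3*, the embryonic skeletal chain, averaged 14.23 RPKM (CV 1.61) over the *Dio3*+/+ and 0.72 RPKM (CV 0.99) over the *Dio3*-/- hearts (adjusted *P* = 0.081 by limma). A CV of this size means that most of the *Dio3*+/+ *Myh3* level came from few hearts.

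The listed regulators of these genes gave no call. Of 25 listed, 24 were tested and 0 passed by limma or by the unequal-variance alternative, with 4 at an unadjusted *P* under 0.05 by limma, and the median log2 fold change was 0.05. With 1.91% of all tested genes called higher and 0.382% lower, a count of 0 in a list of this size is near the background. The 3 with the highest levels were the transcription factors *Tbx20* (158.10 and 200.63 RPKM), *Gata4* (82.27 and 91.97 RPKM) and *Nkx2-5* (78.63 and 85.04 RPKM). The thyroid hormone receptor genes were looked up after their values were seen. *Thra* had 46.32 RPKM (CV 0.05) and 46.45 RPKM (CV 0.04), and *Thrb* was under the filter with 0.34 and 0.53 RPKM. The bounds of single hearts for *Thrb* were apart, at 0.251 to 0.429 RPKM in *Dio3*+/+ and 0.486 to 0.574 RPKM in *Dio3*-/- hearts. Such a separation upwards was found for 3.47% of the genes tested, and *Thrb* was not among those tested.

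The listed targets of the 3 microRNAs gave no call either, which is again near the background for so short a list. All 11 were tested and 0 passed by limma or by the unequal-variance alternative, with a median log2 fold change of -0.02 and a range of -0.26 to 0.21. The 1 gene with an unadjusted *P* under 0.05 was *Dyrk2*, a kinase (32.25 and 37.33 RPKM, adjusted *P* = 0.087 by limma). The members with the highest levels were *Cbx5* (90.66 and 87.80 RPKM), *Thrap3* (50.42 and 50.98 RPKM) and *Sp3* (39.04 and 38.48 RPKM).

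The 3′ UTRs of the targets were searched for matches to the seeds, in the longest 3′ UTR of each gene in GENCODE M21. CGTCTTA, which pairs with the seed of miR-208a-3p and miR-208b-3p, was found in *Med13*, *Sox6* and *Sp3*, 3 of 11 genes, and in 1.54% of all 20814 genes. AGTCTTA, which pairs with the seed of miR-499-5p, was found in *Sox6*, *Purb*, *Mstn*, *Pdcd4* and *Ppp3ca*, and in 9.52% of all genes. The list was made from known targets, and some of its 3′ UTRs are long, up to 8100 bases, so these counts are descriptions. Sites are shown with the match in capitals, 1 for each gene with a miR-208 match and the miR-499 match that follows it in *Sox6*:
*Med13*: taaaatatatgtaatCGTCTTAat
*Sox6*, miR-208: atctctgcccatcgcCGTCTTAtg
*Sox6*, miR-499: catcgccgtcttatgAGTCTTAca
*Sp3*: taataaggtgtattgCGTCTTAgc
*Med13*, a subunit of the Mediator complex, had 19.15 RPKM (CV 0.11) and 18.88 RPKM (CV 0.02). *Sox6*, a transcription factor that represses slow muscle genes, had 6.41 RPKM (CV 0.16) and 5.78 RPKM (CV 0.06). Both were named for their sites after values were seen, and neither passed (adjusted *P* = 0.915 and 0.515 by limma).

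Markers of cell types were set beside these results. The heart muscle markers were abundant in both genotypes, as the label of the tissue says. All 10 cardiomyocyte markers had a positive log2 fold change (median 0.23), and 2 were called higher, against 1.91% of all tested genes. These were *Tnni3*, cardiac troponin I, which rose from 242.04 RPKM (CV 0.18) to 408.48 RPKM (CV 0.09), and *Ryr2*, the calcium release channel, which rose from 24.20 RPKM (CV 0.15) to 36.62 RPKM (CV 0.08). The adjusted *P* values were 0.018 and 0.023 by limma, and the unequal-variance alternative ended both calls. *Actc1*, cardiac α-actin, had 4778.41 and 5638.08 RPKM. Relative to the median of these markers, the log2 fold change of *Myh6* was 0.83 and that of *Myh7* was -0.31.

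Few markers of the chambers were called. Of 10 atrial markers, 1 was called higher, beside 1.91% of all tested genes. This was *Stard10*, from 16.78 to 24.96 RPKM (log2 difference 0.56, SE 0.07, adjusted *P* = 0.0070 by limma), a call that the unequal-variance alternative ended. In the atrial list, 3 markers had an unadjusted *P* under 0.05 by limma. The median of the atrial list was 0.02, with 5 log2 differences above 0 and 5 below. The atrial light chains *Myl4* and *Myl7* had log2 differences of 0.15 and 0.33 and did not pass. Of 8 ventricular markers, 0 were called by limma or by the unequal-variance alternative, 1 had an unadjusted *P* under 0.05 by limma, and the median was 0.14. A count of 0 in so short a list is near the background of 1.91% called higher and 0.382% lower. *Myl2*, *Myl3* and *Lbh* had log2 differences of 0.24, 0.37 and 0.13.

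The levels of markers of other tissues differed more between genotypes, and most of these differences did not pass. *Hba-a1* of the red cell list was not analysed here, and the means of the 6 other red cell markers were all lower in *Dio3*-/- hearts (median -1.45), with a summed level of 37274 and 12746 RPKM. 1 of the 6 passed, beside 0.382% of all tested genes called lower. This was *Hbb-bh1*, an embryonic globin, which fell from 317.82 to 110.93 RPKM (adjusted *P* = 0.047 by limma), and 5 alternatives ended that call. The globins *Hbb-y* and *Hba-x* had log2 differences of -1.55 and -1.55. All 8 liver markers were higher in *Dio3*-/- hearts, with a summed level of 15.3 and 107 RPKM and CVs of 0.50 to 1.41 in *Dio3*+/+ and 0.93 to 1.26 in *Dio3*-/- hearts. 0 of them were called by limma or by the unequal-variance alternative, beside 1.91% of all tested genes called higher by limma. All 8 had an unadjusted *P* under 0.05 by limma. *Afp* had 5.11 and 44.57 RPKM, *Alb* 5.16 and 36.06 RPKM and *Apoa1* 1.19 and 8.57 RPKM.

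Of 11 skeletal muscle markers, 10 had a negative log2 fold change (median -1.34), with a summed level of 193 and 174 RPKM. Leaving out rows with a CV above 0.5 kept only *Acta1*, *Myh8* and *Tnni2*, and the median was then the value of *Myh8*, -0.19. Of the 11 markers, 1 was called lower, beside 0.382% of all tested genes. This was *Tnni2*, fast skeletal troponin I, which fell from 11.09 to 7.55 RPKM (adjusted *P* = 0.017 by limma), and the unequal-variance alternative ended that call. *Acta1*, the 1 marker with a positive log2 fold change, had 113.76 and 149.79 RPKM and made up most of the summed level in both genotypes. *Mylpf* had 25.27 RPKM with a CV of 1.43 and 5.60 RPKM. In none of these 3 lists was a listed marker at 0 in either genotype. The part of these shifts in the levels of the myosin heavy chains was not tested.

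**Figure D5:**
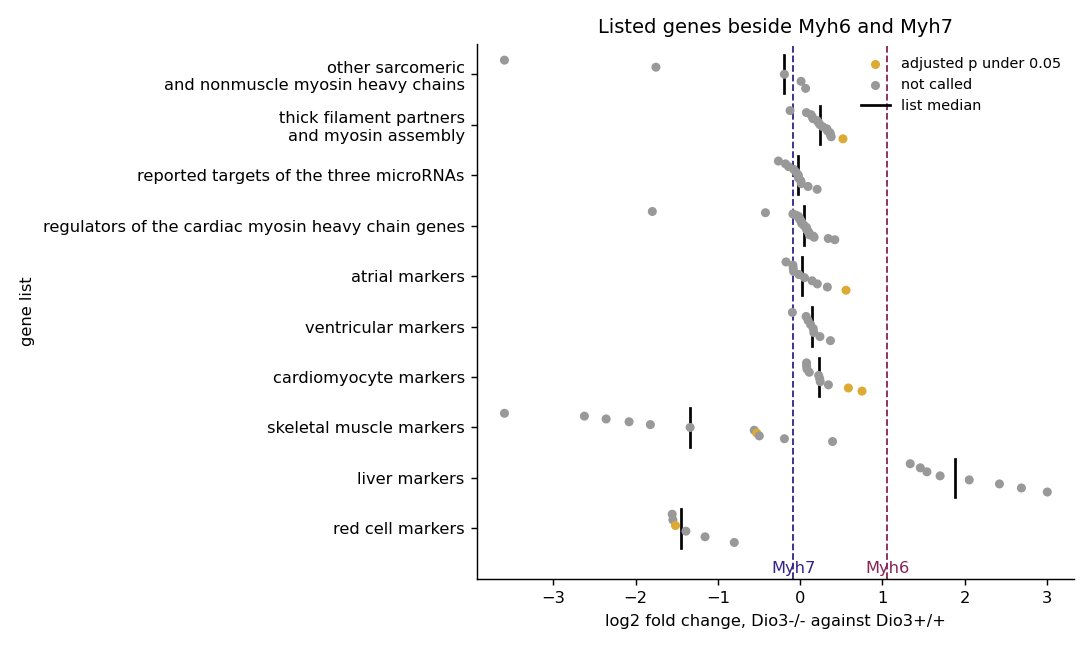
Log2 fold change (*Dio3*-/- against *Dio3*+/+) of each tested gene in the 10 lists; called genes are in yellow, others are grey, the black bar is the list median, and dashed lines mark *Myh6* (1.06) and *Myh7* (-0.08). Apart from the liver markers, every listed gene lies to the left of the *Myh6* line.

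The level of *Dio3* itself did not check the labels. It averaged 0.35 RPKM (CV 1.23) over the *Dio3*+/+ hearts and 0.13 RPKM (CV 0.76) over the others, both under the filter of 1 RPKM. By the bounds, single hearts of both genotypes may overlap, and *Dio3* was not called in the test without the filter (adjusted *P* = 0.589 by limma).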

How the data were processed

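Hearts of 4 *Dio3*+/+ and 4 *Dio3*-/- fetuses were sequenced (rRNA-depleted total RNA, single-end). Alignment was with Novoalign (2.08); reads that mapped to one place were counted, and samples were brought linearly to a common total. The authors deposited one mean per genotype and UCSC transcript, read here as RPKM from the filter in their methods, since the table does not name its unit. The authors deposited the CV as a ratio of SD to mean. Their fold change and q value columns were not used. The genome build is not given in the sources used here. Read totals are not part of the table used here. From what 1 read was worth in microRNA rows, the reads behind 1 library were estimated at about 29100000 (27500000 to 35600000) in *Dio3*+/+ and 32600000 (26400000 to 39600000) in *Dio3*-/- hearts. That estimate was made after the values were seen. The study's methods do state read depths per sample, and both central estimates lie below them.

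Means were put on the log2(RPKM + 0.5) scale, with the SD from the CV. Rows above 1 RPKM in a genotype (32703) were tested with limma (3.58.1, R 4.3.3), with a mean-variance trend, 3.52 prior and 6 residual degrees of freedom and Benjamini-Hochberg adjustment (threshold 0.05). A gene was called by its highest row. This scale understates changes of low genes. The test was tested on simulated data. Python (3.11.15) was used for summaries. Alternatives were pseudocounts of 0.1 and 1, no filter, an average above 5 RPKM, no trend, 1 row per gene, Welch's test from the summaries, centring, CVs raised by 0.005 and leaving out CVs above 0.5. Centring on the cardiomyocyte markers was added after the data were seen.

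The members and lists were chosen with earlier results of these data known. Genes named were the members, *Dio3*, the called members of each list and otherwise up to 3 with the highest levels, the 5 genes nearest to *Myh6* and to *Myh7*, and up to 3 annotated neighbours on each side. One called gene of the thick filament list is not reported here.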

Additional observations from a re-analysis of the deposited data

How the results depend on the processing

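*Myh6* kept its direction and call under all 10 alternatives chosen with the design (adjusted *P* 0.00038 to 0.049 by limma or Welch's test), and *Myh7* and *Myh7b* stayed uncalled under them. *Mir208b* lost its call with a pseudocount of 0.1 (log2 fold change 2.83), without a filter (1.63), with Welch's test (1.63) and when centred on the median log2 ratio (1.59), and its row was removed by an average above 5 RPKM and by leaving out CVs above 0.5. Centred on the cardiomyocyte markers, a choice made after seeing the data, *Myh6* was at 0.83, *Myh7* at -0.31 and *Myh7b* at -0.032. The 280 genes called higher became 168 without a filter, 25 with Welch's test, 129 when centred and 157 with raised CVs. The 56 called lower became 29 without a filter, 37 without a trend, 1 with Welch's test, 30 with raised CVs and 96 without CVs above 0.5. The 1 gene called among heavy chains, partners, targets and regulators became 0 without a filter, without a trend, with Welch's test, when centred and with raised CVs, and 2 without CVs above 0.5. The cause of these changes was not tested. With the *Myh7* row uc007txw.1, the *Myh6* share was 62.6% and 76.9% (uc007txr.2), 62.4% and 76.8% (uc007txs.2) and 57.6% and 66.8% (uc007txt.1) in *Dio3*+/+ and *Dio3*-/- hearts, and 57.5% in *Dio3*-/- hearts with uc011zlj.1. With uc007txv.1 it was 41.2% in *Dio3*-/- hearts (uc007txt.1), and 15.9% and 32.1% (uc011zlj.1). No paired analysis was possible because the table used here holds no value of a single heart, and for the same reason no heart was left out in turn. Few reads limit the microRNA rows.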
